A study of Homo sapiens with 12 samples.

Results

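The proteasome genes described here are the 50 genes of the deposited table that are protein coding and whose symbol begins with PSMA, PSMB, PSMC, PSMD, PSME, PSMF or PSMG and a number, of 63036 identifiers in all. Of 101 symbols with these beginnings 44 were pseudogenes and 7 were noncoding RNA genes, and these were left out. The members fall into 8 alpha and 7 constitutive beta subunits of the 20S core, 4 immunoproteasome or thymus subunits, 17 subunits of the 19S cap, 7 assembly chaperones, 5 activators and inhibitors, and 2 genes only named after a subunit. The cap comprises 6 base ATPases, 3 further base subunits and 8 lid subunits. Messenger RNA was sequenced from the human colorectal carcinoma lines HCT15 and HCT116, with 3 libraries in each of 4 groups. The groups were HCT15 cells overexpressing RNF26, HCT15 control cells, HCT116 cells overexpressing RNF26, and HCT116 control cells. RNF26 encodes a ubiquitin ligase of the endoplasmic reticulum membrane, and the comparison asks which mRNAs differ with it in each line. The sources used here do not give how RNF26 was introduced, what the controls received, or whether each arm is a clone or a pool.

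The proteasome is the main protease of the cytosol and nucleus and degrades proteins tagged with ubiquitin. Alpha and beta rings stack into a barrel, the core, whose catalytic sites face inwards. The cap binds ubiquitin chains, removes them, and unfolds the substrate with a ring of ATPases. Immune signals, above all interferon gamma, exchange the catalytic beta subunits for the immunoproteasome subunits PSMB8, PSMB9 and PSMB10, which favour peptides presented on HLA class I. In many cells the transcription factor NFE2L1 raises the subunit genes together when the proteasome is inhibited, by binding antioxidant response elements in their promoters.

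RNF26 mRNA read 53.5, 54.6 and 54.4 TPM in HCT15 RNF26 libraries, against 26.7, 27.8 and 26.4 TPM in HCT15 controls, a ratio of 2.01. In HCT116 it read 299, 334 and 255 TPM in RNF26 libraries, against 15.6, 18.4 and 16.5 TPM in controls, a ratio of 17.6. The arms did not overlap in either line, and each exact permutation test gave p = 0.1, two-sided, the smallest value that 3 against 3 allows. TPM is a share of a library's transcripts, corrected for their length, so it keeps no sequencing depth and permits levels of different genes to be compared. Nothing in the labels says that replicates were grown separately, so every p-value here rests on library-to-library spread that may be technical. HCT15 control replicate 3 stood apart. Mitochondrially encoded genes took 25.9% of its TPM and ribosomal protein genes 17.6%, against 16.4% to 17.7% and 21.8% to 24.4% in the other HCT15 controls. The same shares were 18.4% to 19.2% and 26.5% to 27.6% in HCT15 RNF26 libraries. Of the 49 proteasome genes tested, 32 had their lowest HCT15 control value in replicate 3. Of 8 markers of colorectal epithelium, 7 reached 1 TPM in at least 1 library of each HCT15 group, and 6 in each HCT116 group. CDX1 was listed at 0 in HCT15 RNF26 and in both HCT116 groups. Of 9 immune cell markers, which matter because those cells hold immunoproteasomes without stimulation, the summed level was 12.5 to 14.1 TPM in HCT15 RNF26 and 14.8 to 23.3 TPM in HCT15 control libraries. It was 9.29 to 10.5 TPM in HCT116 RNF26 and 11.5 to 13.1 TPM in HCT116 control libraries. CD68, which is not limited to immune cells, led that sum in every group, and CD3E was listed at 0 in all 4 groups.

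The most abundant mRNAs of the members were those of some barrel subunits, while the barrel subunits PSMB2, PSMA2 and PSMA5 ranked 37, 39 and 44 in HCT15 controls. PSMA4, PSMB1 and PSMB4 held the first 3 places by mean TPM in both HCT15 groups, with 451, 436 and 433 TPM in RNF26 libraries, against 467, 463 and 452 TPM in controls. In HCT116 the first places went to PSMA4, PSMB1 and PSMA7 in RNF26 libraries, at 567, 546 and 544 TPM, and to PSMB1, PSMA4 and PSMB4 in controls, at 544, 542 and 535 TPM. Neighbours in each of these orders overlapped in their libraries. At the bottom, PSMB11, the thymus subunit, was listed at 0 in all 12 libraries, did not pass the filter on low values and is in no count below. PSMA8, the testis alpha subunit, averaged 6.50 TPM in HCT15 RNF26, 8.39 in HCT15 control, 3.19 in HCT116 RNF26 and 2.83 in HCT116 control libraries. The remaining alpha subunits averaged 32.1 TPM or more in HCT15 controls.

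Summed over the 17 cap genes, mRNA came to 1789, 1866 and 1858 TPM in HCT15 RNF26 libraries, against 2351, 2051 and 2239 TPM in HCT15 controls. Summed over the 14 core genes that the body uses widely, PSMA1 to PSMA7 and PSMB1 to PSMB7, it came to 3296, 3159 and 3308 TPM in HCT15 RNF26 libraries, against 3481, 3578 and 2920 TPM in HCT15 controls. On the deposited scale the cap sums of the arms did not overlap, as for 35.9% of all genes tested that lay lower without overlap, and the core sums did overlap. With each library divided by a median-ratio scaling factor, the cap sums were 1940.0, 1882 and 1990.0 in HCT15 RNF26 libraries, against 2103, 1851 and 2052 in HCT15 controls, so the separation ended. The core sums then came to 3575, 3185 and 3543 in HCT15 RNF26 libraries, against 3114, 3229 and 2677 in HCT15 controls, still with overlap, and the log2 ratio of means turned to 0.19, against -0.032 on the deposited scale. In bulk libraries, less mRNA in every cell and fewer cells that hold it cannot be told apart. The ratio of cap to core was 0.565 ± 0.0242 in HCT15 RNF26 and 0.672 ± 0.0968 in HCT15 control libraries (SD, n = 3 each). Single control libraries lay at 0.675, 0.573 and 0.767, the last being replicate 3, and the 0.573 of replicate 2 fell inside the RNF26 range of 0.543 to 0.591, so the arms overlapped. In HCT116 the ratio was 0.668 ± 0.0160 in RNF26 and 0.670 ± 0.00625 in control libraries (SD, n = 3 each), a difference below the spread of either arm.

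**Figure D1:**
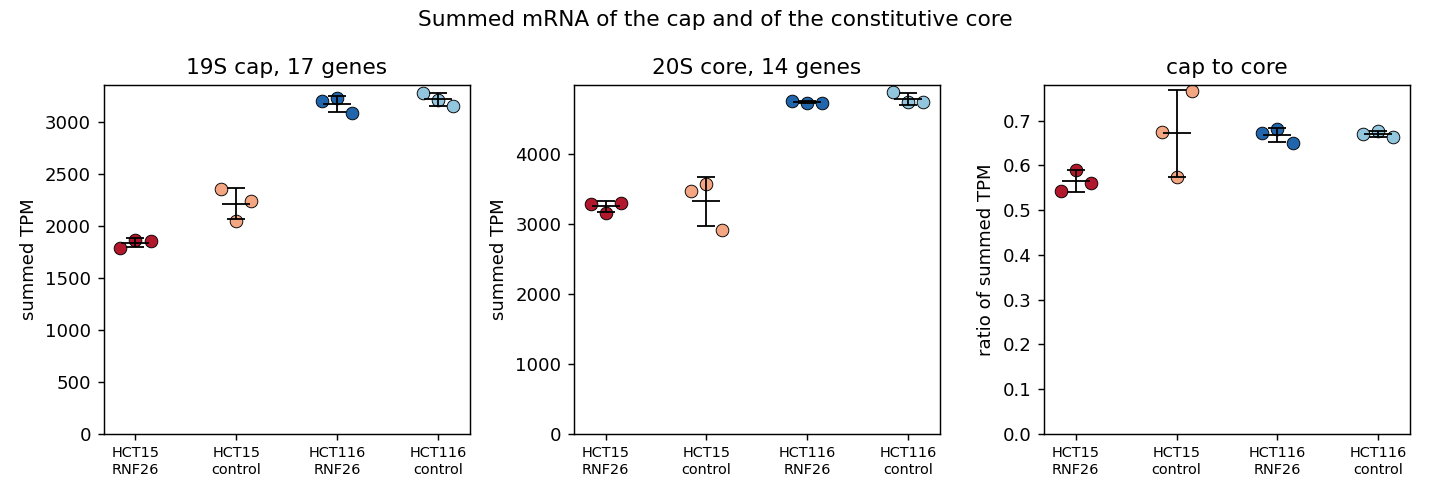
Summed TPM of the 17 cap genes, summed TPM of 14 constitutive core genes, and their ratio, per library (points) with mean and SD (bars) for the 4 groups. The 3 HCT15 RNF26 libraries lie at 1789 to 1866 TPM for the cap, below the 2051 to 2351 TPM of the HCT15 controls, while the core sums and the ratios of these arms overlap. Under median-ratio scaling the cap sums overlap too.

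In HCT15, proteasome mRNAs moved in both directions with RNF26, and the falls lay mainly in the cap. Of 49 members tested, 4 rose and 19 fell (limma on log2(TPM + 1), Benjamini-Hochberg adjusted p under 0.05 over all 15584 genes tested), 26 did not pass, and 26 had an unadjusted p under 0.05. The rises are 8.16% of the members, against 5.39% of all genes tested, and the falls 38.8%, against 31.2%, so neither share stands far from the rest of the transcriptome. The arms did not overlap for 4 members that were higher and 18 that were lower, against 7.23% and 35.9% of all genes, or 43.1% in either direction. The median log2 fold change was -0.085 over the members and -0.17 over all genes. By place in the particle, 0 of 17 cap genes rose and 11 fell, with a median of -0.076 relative to all genes, while 2 of 15 constitutive core genes rose and 3 fell, with a relative median of 0.19. These relative medians kept their signs in all 25 alternative settings, between -0.24 and -0.025 for the cap and between 0.024 and 0.29 for the core, but whether single genes count as risen or fallen depends on the scaling. Scaling by median ratios, which moves the median of all genes to 0, gave 18 rises and 5 falls among the members, quantile normalization 12 and 6, and removal of mitochondrial and ribosomal protein genes 9 and 8. PSMD1, PSMD2, PSMD3, PSMD8 and PSMF1 were the members that fell in all 25 settings, and no rise held in all of them. In the cap only PSMD1, PSMD2, PSMD3 and PSMD8 still fell under median-ratio scaling, while PSMC1 and PSMD14 passed as rises. Rises numbered 7 without HCT15 control replicate 2, 1 without control replicate 3 or without RNF26 replicate 1, and 2 without RNF26 replicate 2. Falls numbered 10 without control replicate 1 or without RNF26 replicate 3, 12 without RNF26 replicate 1, and 17 without control replicate 3. A fit of the HCT15 libraries alone called 0 rises and 7 falls.

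**Figure D2:**
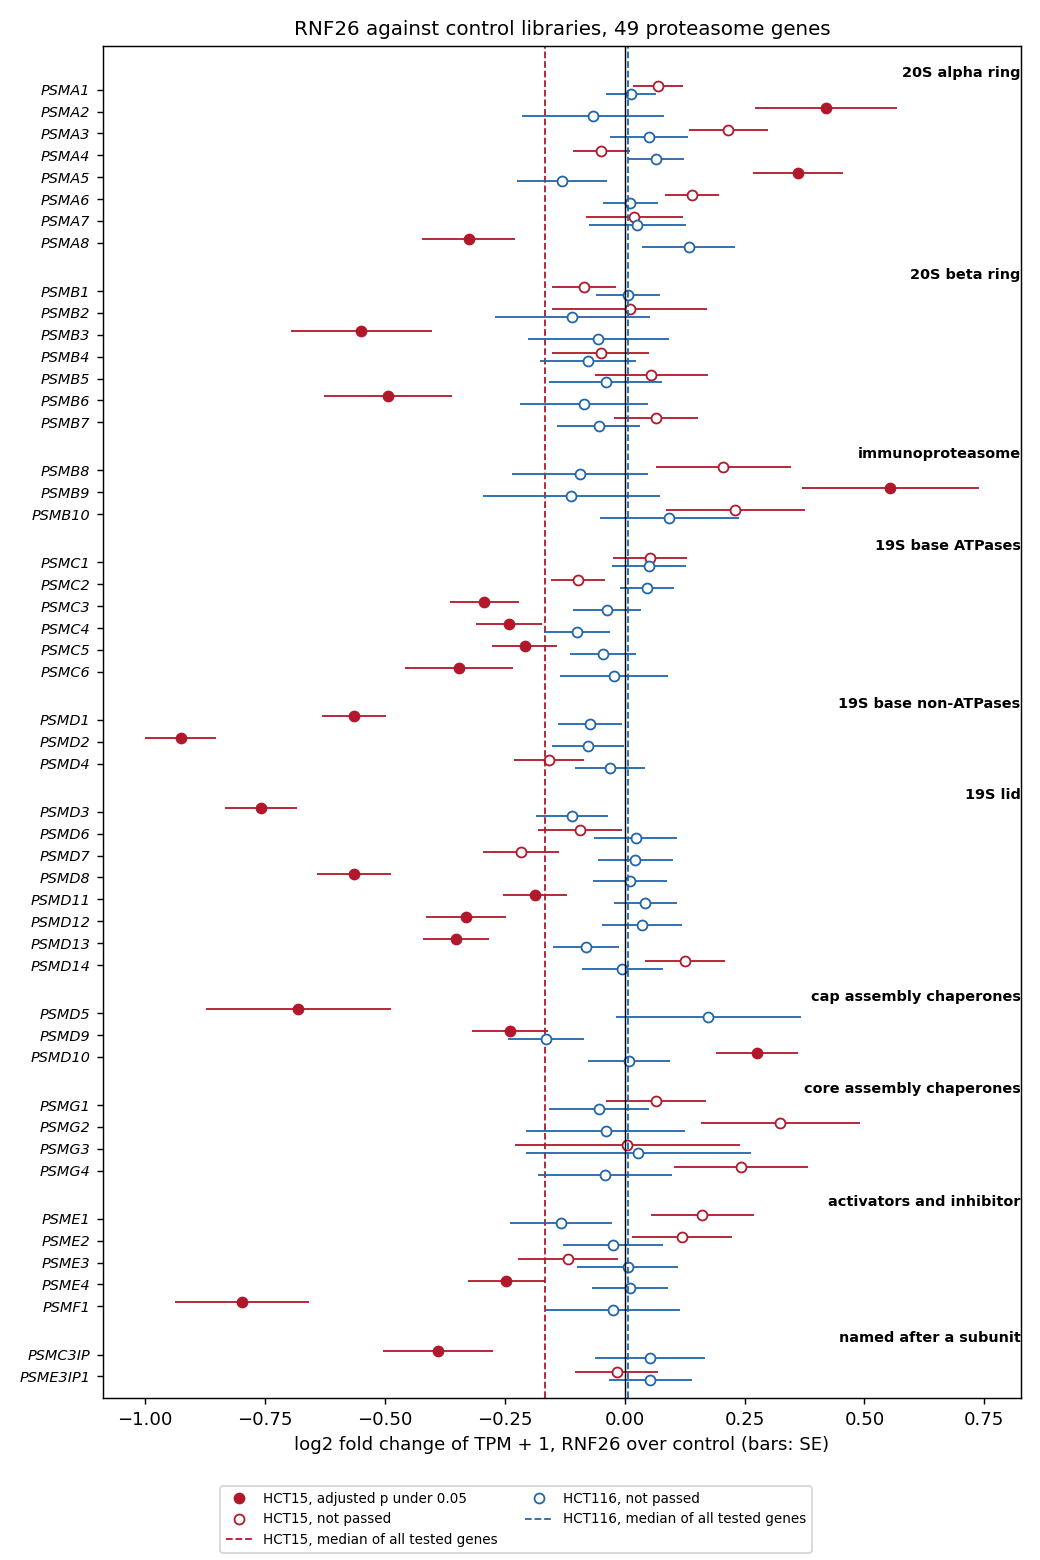
Log2 fold change of TPM + 1, RNF26 over control, for each of the 49 tested members by class, with SE bars, HCT15 in red and HCT116 in blue. Filled points passed an adjusted p of 0.05 and dashed lines mark the median of all tested genes. PSMD2, PSMF1 and PSMD3 lie farthest left in HCT15, at -0.93, -0.80 and -0.76. No HCT116 point is filled. Of the 23 members called in HCT15, PSMC5 and PSMD11 turn above 0 under median-ratio scaling, PSMD11 and PSME4 under quantile normalization, and PSMC4 and PSMC5 under a correction for GC content and length with equal library means. Of the 26 members not called, 9, 7 and 4 change sign under these settings.

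Base non-ATPase subunits, the platform on which ubiquitin receptors and shuttle factors dock, had the lowest median of the 10 classes in HCT15, -0.56, or -0.40 relative to all genes, with 0 rises and 2 falls among 3 genes. The falls are 66.7% of the class, against 31.2% of all genes tested. PSMD2, a docking subunit for shuttle factors, read 74.5, 76.5 and 71.0 TPM in HCT15 RNF26 libraries, against 149, 145 and 130.5 TPM in HCT15 controls. All 3 RNF26 libraries lay below all 3 controls, and the ratio of the means was 0.522 (log2 fold change -0.93, SE 0.075, limma, Benjamini-Hochberg adjusted p = 3.32e-05). In HCT116 the same gene read 265, 267 and 229 TPM in HCT116 RNF26 libraries, against 277, 263 and 261 TPM in HCT116 controls, with overlapping arms (log2 fold change -0.077). PSMD1, the large scaffold that holds the ubiquitin receptor ADRM1, read 31.1, 30.6 and 28.1 TPM in HCT15 RNF26 libraries, against 48.6, 42.1 and 43.5 TPM in HCT15 controls. Again the HCT15 arms did not overlap (log2 fold change -0.56, SE 0.066, limma, Benjamini-Hochberg adjusted p = 1.35e-04). PSMD1 in HCT116 read 119, 114 and 112 TPM in HCT116 RNF26 libraries, against 123, 118 and 121 TPM in HCT116 controls, and these arms overlapped. PSMD4, itself a ubiquitin receptor, averaged 199 ± 13.1 TPM in HCT15 RNF26 and 222 ± 19.9 TPM in HCT15 control libraries (SD, n = 3 each) and did not pass. Without HCT15 control replicate 3 the log2 fold changes of PSMD2 and PSMD1 were -0.98 and -0.58.

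The lid, which cuts ubiquitin chains off the substrate, had 0 rises and 5 falls among 8 genes. The falls are 62.5% of the class, against 31.2% of all genes tested, and the class median was -0.11 relative to all genes. PSMD3, a lid scaffold subunit, read 48.4, 49.7 and 50.0 TPM in HCT15 RNF26 libraries, against 91.8, 79.8 and 81.4 TPM in HCT15 controls. The HCT15 arms were well apart (log2 fold change -0.76, SE 0.074, limma, Benjamini-Hochberg adjusted p = 5.99e-05). PSMD3 in HCT116 read 101, 107 and 90.3 TPM in HCT116 RNF26 libraries, against 109, 110.5 and 102 TPM in HCT116 controls, and the arms overlapped. PSMD8, a lid subunit that joins late in assembly, read 146, 140.1 and 143 TPM in HCT15 RNF26 libraries, against 224, 193 and 221 TPM in HCT15 controls. It was lower in every HCT15 RNF26 library (log2 fold change -0.56, SE 0.077, limma, Benjamini-Hochberg adjusted p = 3.09e-04). PSMD8 in HCT116 read 259, 291 and 262 TPM in HCT116 RNF26 libraries, against 287, 271 and 247 TPM in HCT116 controls, with no separation. PSMD13, PSMD12 and PSMD11, further lid subunits, fell by smaller amounts in HCT15, with log2 fold changes of -0.35, -0.33 and -0.19, and their calls held in 24, 21 and 7 of 25 settings, PSMD11 turning above 0 under median-ratio scaling and quantile normalization. PSMD6, PSMD7 and PSMD14, the last being the deubiquitinase of the lid, did not pass, with -0.093, -0.22 and 0.13. PSMD14 passed as a rise under median-ratio scaling, at 0.34 (limma with Benjamini-Hochberg adjusted p = 0.00532).

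The promoter windows of PSMD2 and PSMD3 are shown because these members fell in every setting and in the test of the difference between lines. PSMD2 (ENSG00000175166, chr3:184298709-184309054, plus strand, GENCODE annotation of GRCh38) and PSMD3 (ENSG00000108344, chr17:39980797-39997960, plus strand) are both on the plus strand. The windows run from 250 bases before to 50 bases after the RefSeq start, at chr3:184298991-184299290, plus strand, and chr17:39980557-39980856, plus strand (RefSeq, GRCh38.p14). Capitals mark matches, on either strand, to an antioxidant response element TGACNNNGC, an interferon element made of GAAA, any 2 bases and GAAA, a gamma-activated site TTCNNNGAA, or CCAAT.
PSMD2: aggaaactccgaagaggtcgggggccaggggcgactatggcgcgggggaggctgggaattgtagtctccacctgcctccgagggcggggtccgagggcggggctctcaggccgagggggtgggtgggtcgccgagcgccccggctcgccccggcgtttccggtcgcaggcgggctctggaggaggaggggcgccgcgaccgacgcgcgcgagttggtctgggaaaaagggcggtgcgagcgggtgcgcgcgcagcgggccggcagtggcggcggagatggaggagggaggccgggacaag
PSMD3: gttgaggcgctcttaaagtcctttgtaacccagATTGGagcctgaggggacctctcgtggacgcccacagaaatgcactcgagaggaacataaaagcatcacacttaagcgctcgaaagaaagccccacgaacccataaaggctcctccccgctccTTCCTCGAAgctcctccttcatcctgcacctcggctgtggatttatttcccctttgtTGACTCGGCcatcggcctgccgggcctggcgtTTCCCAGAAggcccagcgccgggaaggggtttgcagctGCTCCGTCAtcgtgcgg
The PSMD2 window held none of these letters, and the PSMD3 window held 2 antioxidant, 2 gamma-activated and 1 CCAAT match, none overlapping another.

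**Figure D3:**
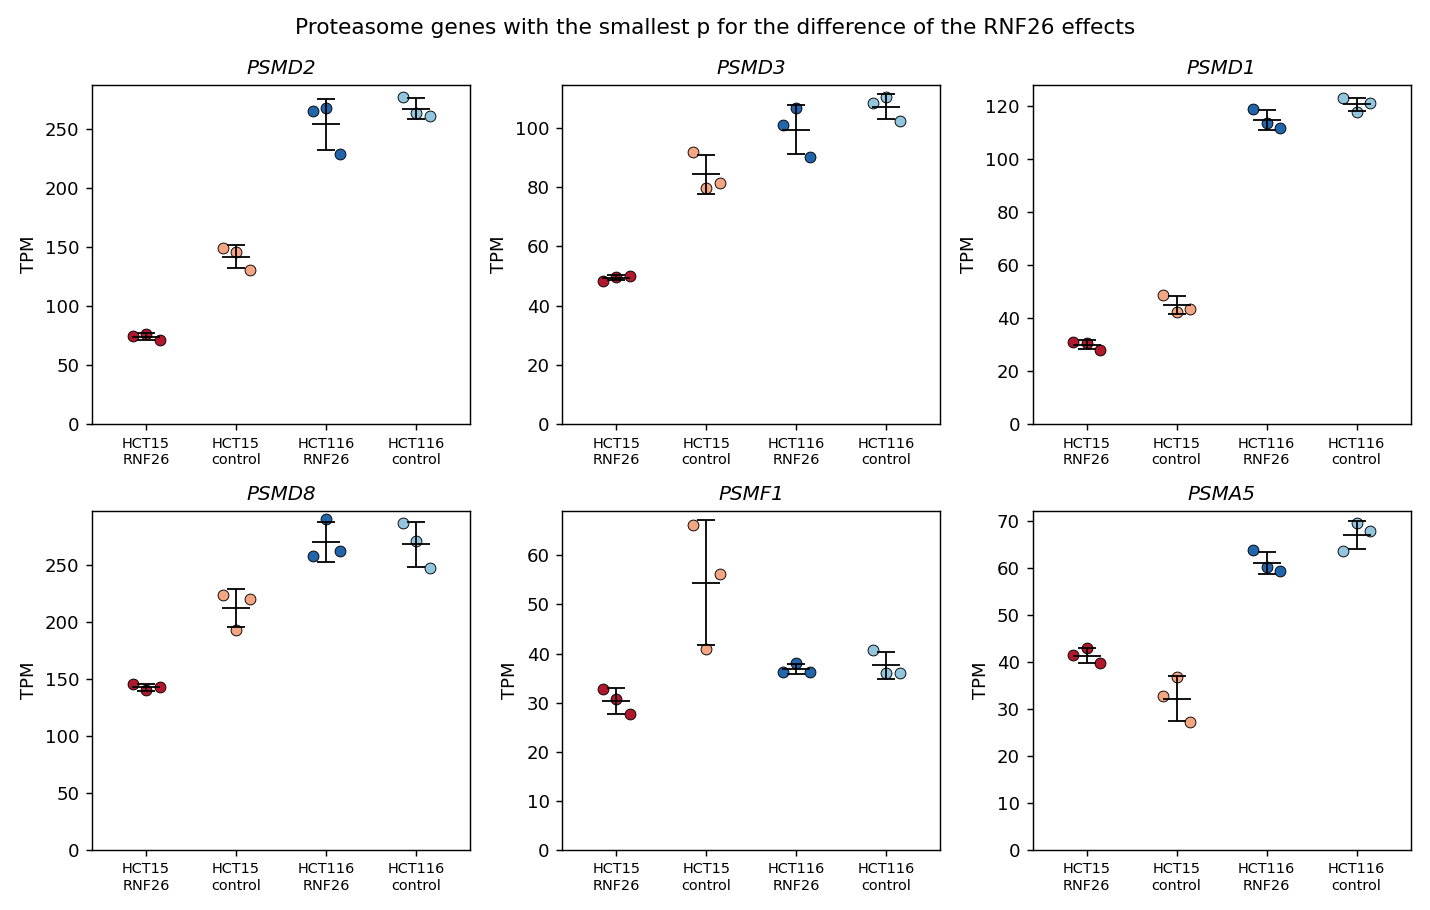
TPM per library (points) with mean and SD (bars) in the 4 groups for the 6 proteasome genes with the smallest p in the test of the difference between the RNF26 effects. For PSMD2, PSMD3, PSMD1, PSMD8 and PSMF1 all HCT15 RNF26 libraries lie below all HCT15 controls, for PSMA5 all lie above, and the HCT116 arms overlap in all 6 panels.

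The base ATPases, a ring of motors that unfolds substrates and opens the barrel, had 0 rises and 4 falls among 6 genes, all of small size. The falls are 66.7% of the class, against 31.2% of all genes tested, and the class median was -0.059 relative to all genes. PSMC3 read 138, 151 and 154 TPM in HCT15 RNF26 libraries, against 188, 164 and 191 TPM in HCT15 controls (log2 fold change -0.29, SE 0.072, limma, Benjamini-Hochberg adjusted p = 0.00838). The HCT15 arms did not overlap, and the call held in 19 of 25 alternative settings. PSMC3 in HCT116 read 243, 252 and 237 TPM in HCT116 RNF26 libraries, against 259.7, 252 and 240.0 TPM in HCT116 controls, with overlap. PSMC4 read 47.5, 45.6 and 45.5 TPM in HCT15 RNF26 libraries, against 59.0, 55.9 and 49.9 TPM in HCT15 controls (log2 fold change -0.24, SE 0.069, limma, Benjamini-Hochberg adjusted p = 0.0181). Its call held in 17 of 25 alternative settings, and the sign turned under a correction for GC content and length with equal library means. PSMC4 in HCT116 read 124, 133 and 123 TPM in HCT116 RNF26 libraries, against 142, 137 and 129 TPM in HCT116 controls, with overlap. PSMC6 and PSMC5 also fell, by 0.35 and 0.21 on the log2 scale, the second turning above 0 under median-ratio scaling and under that same correction. Their calls held in 15 and 13 of 25 alternative settings, and the arms of PSMC6 overlapped. PSMC1 and PSMC2 did not pass, at 0.053 and -0.10. Under median-ratio scaling PSMC1 passed as a rise, at 0.27 (limma with Benjamini-Hochberg adjusted p = 0.0204). PSMC1 is uncertain, because the pseudogene PSMC1P1 averaged 81.3 TPM over the libraries, 28.0% of the level of PSMC1, and reads of near-identical copies can be split between them.

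In the alpha ring, which gates the barrel, 2 of 8 genes rose and 1 fell in HCT15. These are 25.0% and 12.5% of the class, against 5.39% and 31.2% of all genes tested, and the class median was 0.27 relative to all genes. PSMA5 read 41.4, 42.9 and 39.6 TPM in HCT15 RNF26 libraries, against 32.7, 36.6 and 27.1 TPM in HCT15 controls. Every HCT15 RNF26 library exceeded every control (log2 fold change 0.36, SE 0.094, limma, Benjamini-Hochberg adjusted p = 0.0112), and the call held in 23 of 25 alternative settings. PSMA5 in HCT116 read 63.7, 60.1 and 59.2 TPM in HCT116 RNF26 libraries, against 63.6, 69.5 and 67.7 TPM in HCT116 controls, with overlapping arms. PSMA8 read 6.54, 6.80 and 6.16 TPM in HCT15 RNF26 libraries, against 8.37, 8.60 and 8.21 TPM in HCT15 controls (log2 fold change -0.33, SE 0.10, limma, Benjamini-Hochberg adjusted p = 0.0223). All 3 HCT15 RNF26 libraries lay below all 3 controls, and the call held in 18 of 25 alternative settings. PSMA8 in HCT116 read 3.36, 2.88 and 3.33 TPM in HCT116 RNF26 libraries, against 2.81, 2.42 and 3.26 TPM in HCT116 controls, with overlap. PSMA2 rose by 0.42 (limma with Benjamini-Hochberg adjusted p = 0.0461) with arms that overlapped, and held in 10 of 25 alternative settings. Its region overlaps MRPL32 on the opposite strand, and the sources used here do not give whether quantification used the strand. In all, 27 of the 50 members overlap a gene on the opposite strand, and their levels share that limit. Only for 21 of the 27 did such a gene average 1 TPM or more over the libraries. PSMA1, PSMA3, PSMA4, PSMA6 and PSMA7 did not pass, with log2 fold changes of -0.048 to 0.22. Under median-ratio scaling PSMA1, PSMA3 and PSMA6 passed as rises, at 0.29, 0.44 and 0.36 (limma with Benjamini-Hochberg adjusted p = 0.00315, 0.00313 and 0.0017).

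In the constitutive beta ring, which carries the catalytic sites, 0 of 7 genes rose and 2 fell. The falls are 28.6% of the class, against 31.2% of all genes tested, and the class median was 0.12 relative to all genes. PSMB3, a structural subunit without catalytic activity, read 180.0, 144 and 168 TPM in HCT15 RNF26 libraries, against 255, 297 and 180.2 TPM in HCT15 controls (log2 fold change -0.55, SE 0.15, limma, Benjamini-Hochberg adjusted p = 0.0132). The lowest HCT15 control, replicate 3, lay just above the highest RNF26 library, and without it the log2 fold change was -0.75 (limma with Benjamini-Hochberg adjusted p = 3.10e-04). PSMB3 in HCT116 read 494, 494 and 481 TPM in HCT116 RNF26 libraries, against 518, 503 and 504 TPM in HCT116 controls, the 1 member of the ring whose HCT116 arms did not overlap. PSMB6, the caspase-like site, read 109, 94.0 and 108 TPM in HCT15 RNF26 libraries, against 158, 176 and 112 TPM in HCT15 controls (log2 fold change -0.49, SE 0.13, limma, Benjamini-Hochberg adjusted p = 0.0138). Here too control replicate 3 lay nearest to the RNF26 libraries, and without it the log2 fold change was -0.68 (limma with Benjamini-Hochberg adjusted p = 2.54e-04). PSMB6 in HCT116 read 283, 292 and 283 TPM in HCT116 RNF26 libraries, against 321, 298 and 290.4 TPM in HCT116 controls, with overlap. The calls of PSMB3 and PSMB6 held in 20 and 19 of 25 settings. PSMB1, PSMB2, PSMB4, PSMB5 and PSMB7 did not pass, with -0.085 to 0.065. The other catalytic sites of the constitutive particle, PSMB5 with chymotrypsin-like and PSMB7 with trypsin-like activity, are thus among those that did not pass. Under median-ratio scaling PSMB7 passed as a rise, at 0.29 (limma with Benjamini-Hochberg adjusted p = 0.0342).

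Of the 3 cap assembly chaperones, which guide the ATPase ring together, 1 rose and 2 fell in HCT15. These are 33.3% and 66.7% of the class, against 5.39% and 31.2% of all genes tested, and the class median was -0.074 relative to all genes. PSMD10, also known as gankyrin, read 45.6, 44.8 and 41.0 TPM in HCT15 RNF26 libraries, against 38.7, 38.6 and 31.2 TPM in HCT15 controls (log2 fold change 0.28, SE 0.086, limma, Benjamini-Hochberg adjusted p = 0.027). The HCT15 arms did not overlap, but without control replicate 3 the log2 fold change was 0.18 (limma with Benjamini-Hochberg adjusted p = 0.0708). PSMD10 in HCT116 read 58.7, 55.4 and 61.4 TPM in HCT116 RNF26 libraries, against 60.1, 56.0 and 58.0 TPM in HCT116 controls. PSMD5 read 42.1, 35.3 and 35.9 TPM in HCT15 RNF26 libraries, against 56.2, 44.9 and 89.3 TPM in HCT15 controls (log2 fold change -0.68, SE 0.19, limma, Benjamini-Hochberg adjusted p = 0.0175), with control replicate 3 far above the other HCT15 controls. Without that library its log2 fold change was -0.41 (limma with Benjamini-Hochberg adjusted p = 0.0233). The PSMD5 call held in 18 of 25 alternative settings, and median-ratio scaling, quantile normalization and the separate fit were among those that ended it. PSMD5 in HCT116 read 31.4, 38.9 and 35.7 TPM in HCT116 RNF26 libraries, against 31.6, 31.9 and 29.8 TPM in HCT116 controls. PSMD9 read 79.9, 79.3 and 81.0 TPM in HCT15 RNF26 libraries, against 97.6, 102 and 85.0 TPM in HCT15 controls (log2 fold change -0.24, SE 0.079, limma, Benjamini-Hochberg adjusted p = 0.0346), and its call held in 12 of 25 alternative settings. PSMD9 in HCT116 read 73.0, 77.6 and 74.5 TPM in HCT116 RNF26 libraries, against 84.6, 91.5 and 77.0 TPM in HCT116 controls, and the arms overlapped for all 3 chaperones in that line.

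The core assembly chaperones, which work as the pairs PSMG1 with PSMG2 and PSMG3 with PSMG4, had 0 calls in HCT15 and 0 of 4 with an unadjusted p under 0.05 in limma. PSMG1 read 64.8, 82.6 and 67.3 TPM in HCT15 RNF26 libraries, against 66.8, 77.7 and 60.5 TPM in HCT15 controls. PSMG2 read 113, 109 and 110.3 TPM in HCT15 RNF26 libraries, against 93.2, 117 and 62.9 TPM in HCT15 controls. PSMG3 read 24.2, 27.1 and 25.2 TPM in HCT15 RNF26 libraries, against 26.8, 39.2 and 15.5 TPM in HCT15 controls. Replicate 3 was the lowest control for each of them, and for PSMG2 and PSMG3 the controls spread more widely than the RNF26 libraries. PSMG4 read 70.3, 56.5 and 72.9 TPM in HCT15 RNF26 libraries, against 57.4, 64.3 and 47.0 TPM in HCT15 controls. The log2 fold changes of PSMG1 to PSMG4 were 0.065, 0.32, 0.0057 and 0.24. Under median-ratio scaling PSMG1, PSMG2 and PSMG4 passed as rises in HCT15, at 0.28, 0.54 and 0.46 (limma with Benjamini-Hochberg adjusted p = 0.0307, 0.030 and 0.0373). In HCT116, PSMG1 read 83.3, 91.5 and 81.1 TPM in HCT116 RNF26 libraries, against 86.8, 89.0 and 89.4 TPM in HCT116 controls. PSMG2 in HCT116 read 75.5, 67.1 and 72.3 TPM in HCT116 RNF26 libraries, against 69.6, 76.8 and 74.4 TPM in HCT116 controls. The arms overlapped for both partners. PSMG3 in HCT116 read 69.2, 71.2 and 60.4 TPM in HCT116 RNF26 libraries, against 65.3, 66.3 and 64.7 TPM in HCT116 controls. PSMG4 in HCT116 read 31.9, 32.8 and 32.7 TPM in HCT116 RNF26 libraries, against 37.5, 36.0 and 27.5 TPM in HCT116 controls, and here also the arms overlapped.

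Among the genes that open or block the barrel from its ends, PSMF1 and PSME4 fell in HCT15. PSMF1 encodes a protein that inhibits the core in the test tube and serves as an adaptor for its transport in cells. PSMF1 read 32.9, 30.7 and 27.6 TPM in HCT15 RNF26 libraries, against 66.2, 41.0 and 56.1 TPM in HCT15 controls, so every RNF26 library lay below every control (log2 fold change -0.80, SE 0.14, limma, Benjamini-Hochberg adjusted p = 0.00128). PSMF1 in HCT116 read 36.2, 38.1 and 36.3 TPM in HCT116 RNF26 libraries, against 40.7, 36.0 and 36.0 TPM in HCT116 controls, with overlap. PSME4, a nuclear activator, read 16.5, 18.8 and 16.3 TPM in HCT15 RNF26 libraries, against 20.4, 22.7 and 18.8 TPM in HCT15 controls (log2 fold change -0.25, SE 0.080, limma, Benjamini-Hochberg adjusted p = 0.0319). Its call held in 16 of 25 alternative settings, and the sign turned under quantile normalization. PSME4 in HCT116 read 25.4, 25.4 and 23.5 TPM in HCT116 RNF26 libraries, against 24.5, 24.3 and 24.8 TPM in HCT116 controls. PSME1 and PSME2 together form the activator ring that interferon gamma induces. PSME1 read 257, 275 and 271 TPM in HCT15 RNF26 libraries, against 253, 277 and 195 TPM in HCT15 controls. PSME2 read 208, 212 and 221 TPM in HCT15 RNF26 libraries, against 208, 221 and 166 TPM in HCT15 controls. In both, control replicate 3 was the lowest of the 6 libraries, the arms overlapped, and neither passed (0.16 and 0.12). Under median-ratio scaling PSME1 and PSME2 passed as rises, at 0.38 and 0.34 (limma with Benjamini-Hochberg adjusted p = 0.0152 and 0.0222). PSME1 in HCT116 read 87.1, 80.5 and 80.1 TPM in HCT116 RNF26 libraries, against 86.9, 92.5 and 92.3 TPM in HCT116 controls. PSME2 in HCT116 read 156, 155 and 138 TPM in HCT116 RNF26 libraries, against 169, 145 and 144 TPM in HCT116 controls. HCT116 arms overlapped for both. PSME3, the nuclear relative of these activators, read 32.1, 40.6 and 29.9 TPM in HCT15 RNF26 libraries, against 39.3, 36.8 and 34.7 TPM in HCT15 controls. PSME3 in HCT116 read 85.2, 91.0 and 77.6 TPM in HCT116 RNF26 libraries, against 86.7, 85.3 and 80.3 TPM in HCT116 controls, and it passed in neither line.

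The 2 genes that carry a subunit name are no parts of the particle. PSMC3IP encodes a partner of meiotic recombination and read 30.2, 32.0 and 29.2 TPM in HCT15 RNF26 libraries, against 46.1, 32.3 and 43.6 TPM in HCT15 controls (log2 fold change -0.39, SE 0.11, limma, Benjamini-Hochberg adjusted p = 0.0207). The highest RNF26 library lay just below the lowest control, and the call held in 15 of 25 alternative settings. PSMC3IP in HCT116 read 39.2, 45.9 and 40.0 TPM in HCT116 RNF26 libraries, against 40.1, 39.9 and 40.2 TPM in HCT116 controls. PSME3IP1, which binds PSME3, read 60.8, 77.7 and 63.6 TPM in HCT15 RNF26 libraries, against 65.8, 70.0 and 67.8 TPM in HCT15 controls and did not pass. It passed as a rise under median-ratio scaling, at 0.20 (limma with Benjamini-Hochberg adjusted p = 0.0465). PSME3IP1 in HCT116 read 67.1, 72.0 and 64.5 TPM in HCT116 RNF26 libraries, against 68.5, 62.8 and 64.6 TPM in HCT116 controls.

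In HCT116, where RNF26 mRNA was raised far more than in HCT15, 0 of 49 proteasome genes passed (limma with Benjamini-Hochberg adjustment), against 0.00642% of all genes, and 0 had an unadjusted p under 0.05. The log2 fold changes lay between -0.16 for PSMD9 and 0.17 for PSMD5, with medians of -0.022 for the cap, -0.039 for the constitutive core and 0.0070 for all genes. The arms were fully apart for 4 members that were higher, PSMA3, PSMA4, PSMA7 and PSMC2, against 7.25% of all genes, and for 1 that was lower, PSMB3, against 5.56% of all genes (12.8% in either direction). PSMA4, PSMA7 and PSMC2 differed by 0.065, 0.026 and 0.046 on the log2 scale. These 5 are named for the lack of overlap, after their values were seen. No member was called in any of the 25 alternative settings.

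The RNF26 effect itself differed between lines for 9 members (limma, interaction of line and RNF26, Benjamini-Hochberg adjusted p under 0.05). It was higher in HCT15 than in HCT116 for 1 member, PSMA5, 2.04% of the members against 1.80% of all genes, and lower for 8, 16.3% against 18.7%. The shares therefore lie near those of all genes. PSMD2 differed by -0.85 (SE 0.11, limma with Benjamini-Hochberg adjusted p = 0.00131) and PSMD3 by -0.65 (SE 0.11, limma with Benjamini-Hochberg adjusted p = 0.00311), and these calls held in all 24 alternative settings that give one. PSMD1 and PSMD8 differed by -0.49 and -0.58, and each held in 22. PSMF1 and PSMA5 differed by -0.77 and 0.49, and each held in 18. The calls of PSMA8, PSMD12 and PSMD5 held in 10, 7 and 6. The count of lower calls was 5 without any 1 of the HCT116 libraries, without HCT15 control replicate 1, or without HCT15 RNF26 replicate 1 or 3. That of higher calls was 5 without HCT15 control replicate 2 and 0 without HCT116 control replicate 2 or 3, HCT116 RNF26 replicate 2 or HCT15 RNF26 replicate 1. The members that fell in HCT15 without passing this test, PSMB6 and PSMC3 among them, are not shown to respond differently in HCT116. The lines differ in the size of the RNF26 rise as well as in their background, and these cannot be told apart.

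The immunoproteasome subunits differed most between the lines. PSMB8, the immune form of the PSMB5 site, read 63.3, 60.8 and 60.1 TPM in HCT15 RNF26 libraries, against 58.1, 63.2 and 40.6 TPM in HCT15 controls. In HCT116 it read 0, 0.1 and 0 TPM in RNF26 libraries and 0.150, 0.160 and 0 TPM in controls, at the foot of the table. PSMB8 did not pass with RNF26 in HCT15 (0.21), but did under median-ratio scaling, at 0.42 (limma with Benjamini-Hochberg adjusted p = 0.0386). PSMB9, the immune form of the PSMB6 site, read 43.6, 35.3 and 44.0 TPM in HCT15 RNF26 libraries, against 29.1, 36.8 and 19.3 TPM in HCT15 controls. These HCT15 arms overlapped through control replicate 2, and the rise passed (log2 fold change 0.55, SE 0.18, limma, Benjamini-Hochberg adjusted p = 0.0358) but ended without control replicate 3, at 0.31 (limma with Benjamini-Hochberg adjusted p = 0.0926). PSMB9 in HCT116 read 5.53, 5.82 and 4.80 TPM in HCT116 RNF26 libraries, against 6.21, 5.55 and 5.89 TPM in HCT116 controls. PSMB10, the immune form of the PSMB7 site, read 23.9, 20.6 and 23.6 TPM in HCT15 RNF26 libraries, against 17.1, 25.8 and 15.9 TPM in HCT15 controls, and did not pass (0.23). It passed as a rise under median-ratio scaling, at 0.44 (limma with Benjamini-Hochberg adjusted p = 0.0437). PSMB10 in HCT116 read 63.5, 61.6 and 59.3 TPM in HCT116 RNF26 libraries, against 53.0, 61.5 and 58.3 TPM in HCT116 controls, so this subunit ran against the other 2 between lines. In the GENCODE annotation the regions of PSMB8 and PSMB9 overlap on opposite strands, and PSMB9 also overlaps TAP1, so reads could be shared if strand was not used.

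A ratio of each immune subunit to its constitutive counterpart in the same library does not depend on a factor applied to the whole library. PSMB9 stood at 39.4 ± 1.66% of PSMB6 in HCT15 RNF26 and at 18.8 ± 1.93% in HCT15 control libraries (SD, n = 3 each). The arms did not overlap, the log2 ratio was 1.07 higher with RNF26, and the exact permutation test, two-sided, gave p = 0.1, the smallest value possible. The difference joins a PSMB9 rise and a PSMB6 fall, and it was 1.005 to 1.149 with any 1 of the HCT15 libraries left out. PSMB8 stood at 44.5 ± 2.17% of PSMB5 in HCT15 RNF26 and at 40.0 ± 1.26% in control libraries (SD, n = 3 each, exact permutation p = 0.1). PSMB10 stood at 7.77 ± 0.539% of PSMB7 in HCT15 RNF26 and at 6.94 ± 1.32% in control libraries (SD, n = 3 each, exact permutation p = 0.4). In HCT116, PSMB9 stood at 1.88 ± 0.161% of PSMB6 in RNF26 and at 1.94 ± 0.0842% in control libraries (SD, n = 3 each, exact permutation p = 0.7). PSMB10 stood at 16.7 ± 0.260% of PSMB7 in HCT116 RNF26 and at 15.1 ± 1.62% in control libraries (SD, n = 3 each, exact permutation p = 0.2). No log ratio was taken for PSMB8 in HCT116, where libraries are listed at 0. The other 5 ratios were tested without adjustment, since none can pass with 3 against 3.

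**Figure D4:**
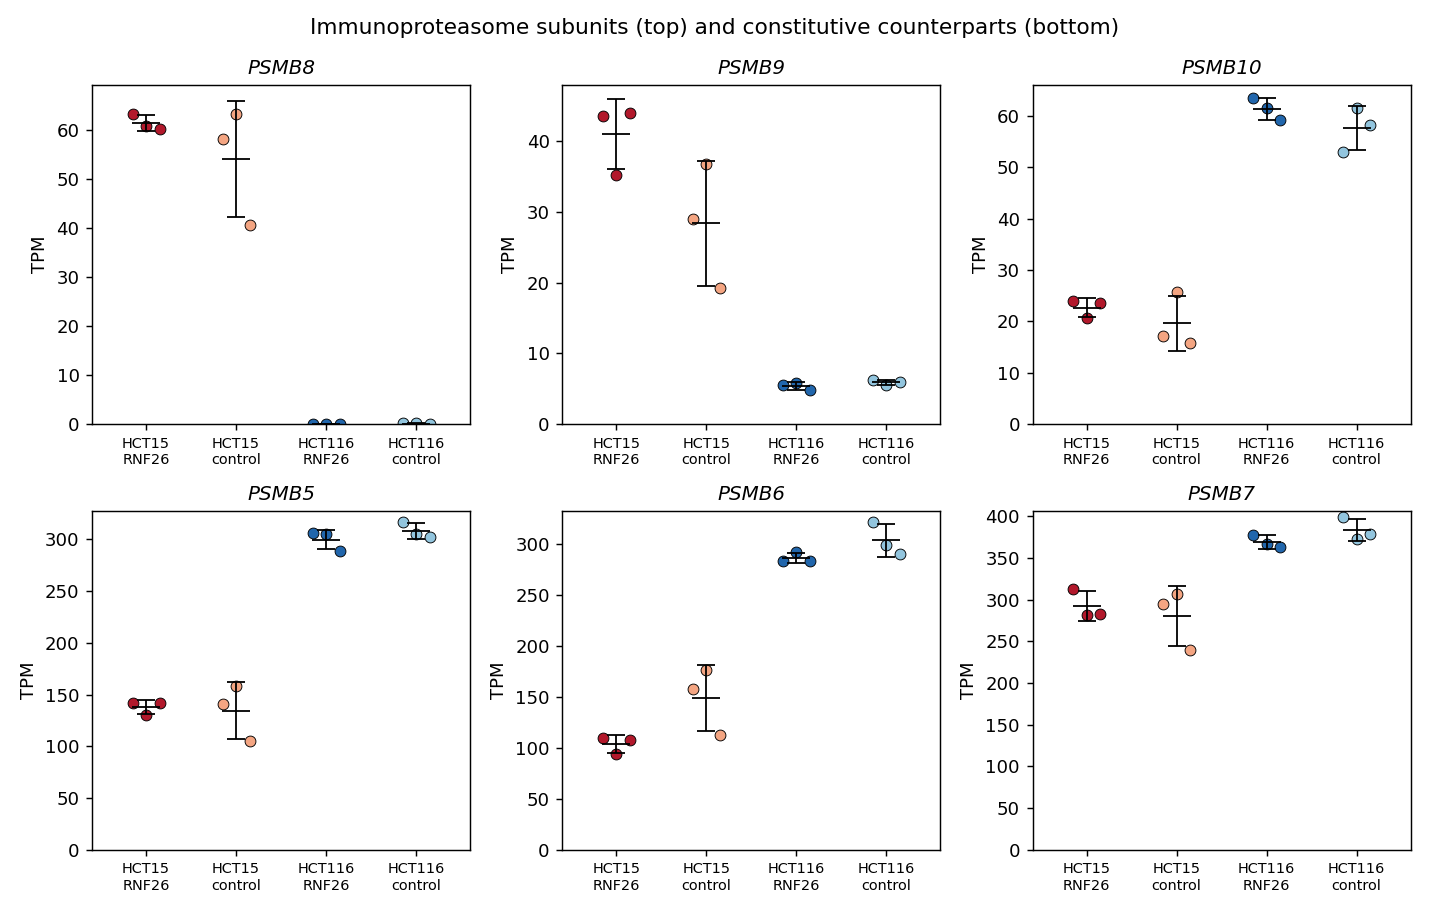
TPM per library (points) with mean and SD (bars) in the 4 groups for PSMB8, PSMB9 and PSMB10, above their constitutive counterparts PSMB5, PSMB6 and PSMB7. PSMB8 lies at 40.6 to 63.3 TPM in HCT15 and at 0.160 TPM or less in HCT116, PSMB10 is higher in HCT116, and PSMB6 is lower in HCT15 RNF26 than in HCT15 control libraries while PSMB9 is mostly higher.

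The promoter windows of PSMB8 (ENSG00000204264, chr6:32840717-32844703, minus strand) and PSMB9 (ENSG00000240065, chr6:32844136-32859585, plus strand) are shown because these genes had the largest differences in favour of HCT15 over HCT116. The windows are chr6:32844630-32844929, minus strand, and chr6:32853942-32854241, plus strand (RefSeq, GRCh38.p14), with capitals as above.
PSMB8: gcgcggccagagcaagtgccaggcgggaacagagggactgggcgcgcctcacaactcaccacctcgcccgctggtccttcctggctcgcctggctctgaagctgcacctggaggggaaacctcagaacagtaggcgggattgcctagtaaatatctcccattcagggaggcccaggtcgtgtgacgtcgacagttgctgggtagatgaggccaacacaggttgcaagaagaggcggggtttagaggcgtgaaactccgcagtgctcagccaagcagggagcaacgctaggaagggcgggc
PSMB9: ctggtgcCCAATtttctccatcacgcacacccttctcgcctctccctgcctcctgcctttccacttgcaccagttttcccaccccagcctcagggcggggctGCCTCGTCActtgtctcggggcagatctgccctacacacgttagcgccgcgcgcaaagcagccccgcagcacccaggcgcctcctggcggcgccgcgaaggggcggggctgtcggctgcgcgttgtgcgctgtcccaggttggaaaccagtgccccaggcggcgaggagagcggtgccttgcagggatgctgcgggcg
The PSMB8 window held no searched motif, and the PSMB9 window held 1 antioxidant match on the opposite strand and 1 CCAAT match.

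Between the control lines, HCT15 held less mRNA than HCT116 for most subunits of the constitutive core and the cap. The median log2 difference was 2.05 for the immunoproteasome genes, with 2 genes higher in HCT15 and 1 lower. It was 0.37 for the activators and inhibitor, with 3 higher and 2 lower. The cap assembly chaperones had a median of 0.17, which is -0.050 relative to all genes, with 1 higher, 1 lower and 1 not passed. Of 49 members, 34 were lower and 10 higher in HCT15 (limma with Benjamini-Hochberg adjusted p under 0.05), 69.4% and 20.4%, against 26.0% and 43.6% of all genes. The median log2 difference, HCT15 control minus HCT116 control, was -0.35 for the members and 0.22 for all genes, so the members' median was -0.56 relative to all genes, and between -0.61 and -0.32 in the 25 alternative settings. The lines' libraries did not overlap for 9 members that were higher and 35 that were lower in HCT15, against 44.8% and 27.1% of all genes, or 71.9% in either direction. All 7 constitutive beta genes, all 8 lid genes and all 3 base non-ATPases were lower, as were 6 of 8 alpha genes and 4 of 6 base ATPases. Summed over all members, mRNA came to 7080, 6948 and 6216 TPM in HCT15 controls, against 9192, 8968 and 8875 TPM in HCT116 controls. The lowest was again HCT15 control replicate 3, without which 12 members were higher and 33 lower. Of the calls, 8 of 10 higher and 31 of 34 lower ones held in all 25 settings, the exceptions being PSME2, PSMF1, PSMA4, PSMB4 and PSME4.

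The 2 members lowest in HCT15 relative to HCT116 were PSMB10, at 17.1, 25.8 and 15.9 TPM in HCT15 controls, against 53.0, 61.5 and 58.3 TPM in HCT116 controls (log2 fold change -1.54, SE 0.14, limma, Benjamini-Hochberg adjusted p = 2.28e-06), and PSMD1, at 48.6, 42.1 and 43.5 TPM, against 123, 118 and 121 TPM (log2 fold change -1.41, SE 0.066, limma, Benjamini-Hochberg adjusted p = 6.28e-09). Neither overlapped between the lines. The 2 members highest in HCT15 relative to HCT116 were PSMB8 (log2 fold change 5.62, SE 0.14, limma, Benjamini-Hochberg adjusted p = 3.61e-11) and PSMB9 (log2 fold change 2.05, SE 0.18, limma, Benjamini-Hochberg adjusted p = 1.56e-06), whose values are given above. The size for PSMB8 depends on the amount added before the log, because HCT116 lies near 0, and ranged from 3.51 to 8.15 over the settings. PSME1, the interferon-responsive activator subunit, averaged 242 ± 42.4 TPM in HCT15 and 90.6 ± 3.20 TPM in HCT116 controls (SD, n = 3 each), a log2 difference of 1.39. Its partner PSME2 differed by 0.37, and that call ended under median-ratio scaling. PSMA8, PSMD5, PSMG4, PSMF1, PSMC6 and PSMA6 were the other higher members, by 1.30, 0.95, 0.72, 0.50, 0.49 and 0.37. Among the other lower members, PSMG3, PSME3 and PSMC4 differed by -1.33, -1.17 and -1.29. PSMC1, PSMD9, PSMG2, PSMC3IP and PSME3IP1 did not pass. The HCT15 controls enter both this comparison and that of RNF26 in HCT15, so the signs of the 2 are not independent.

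**Figure D5:**
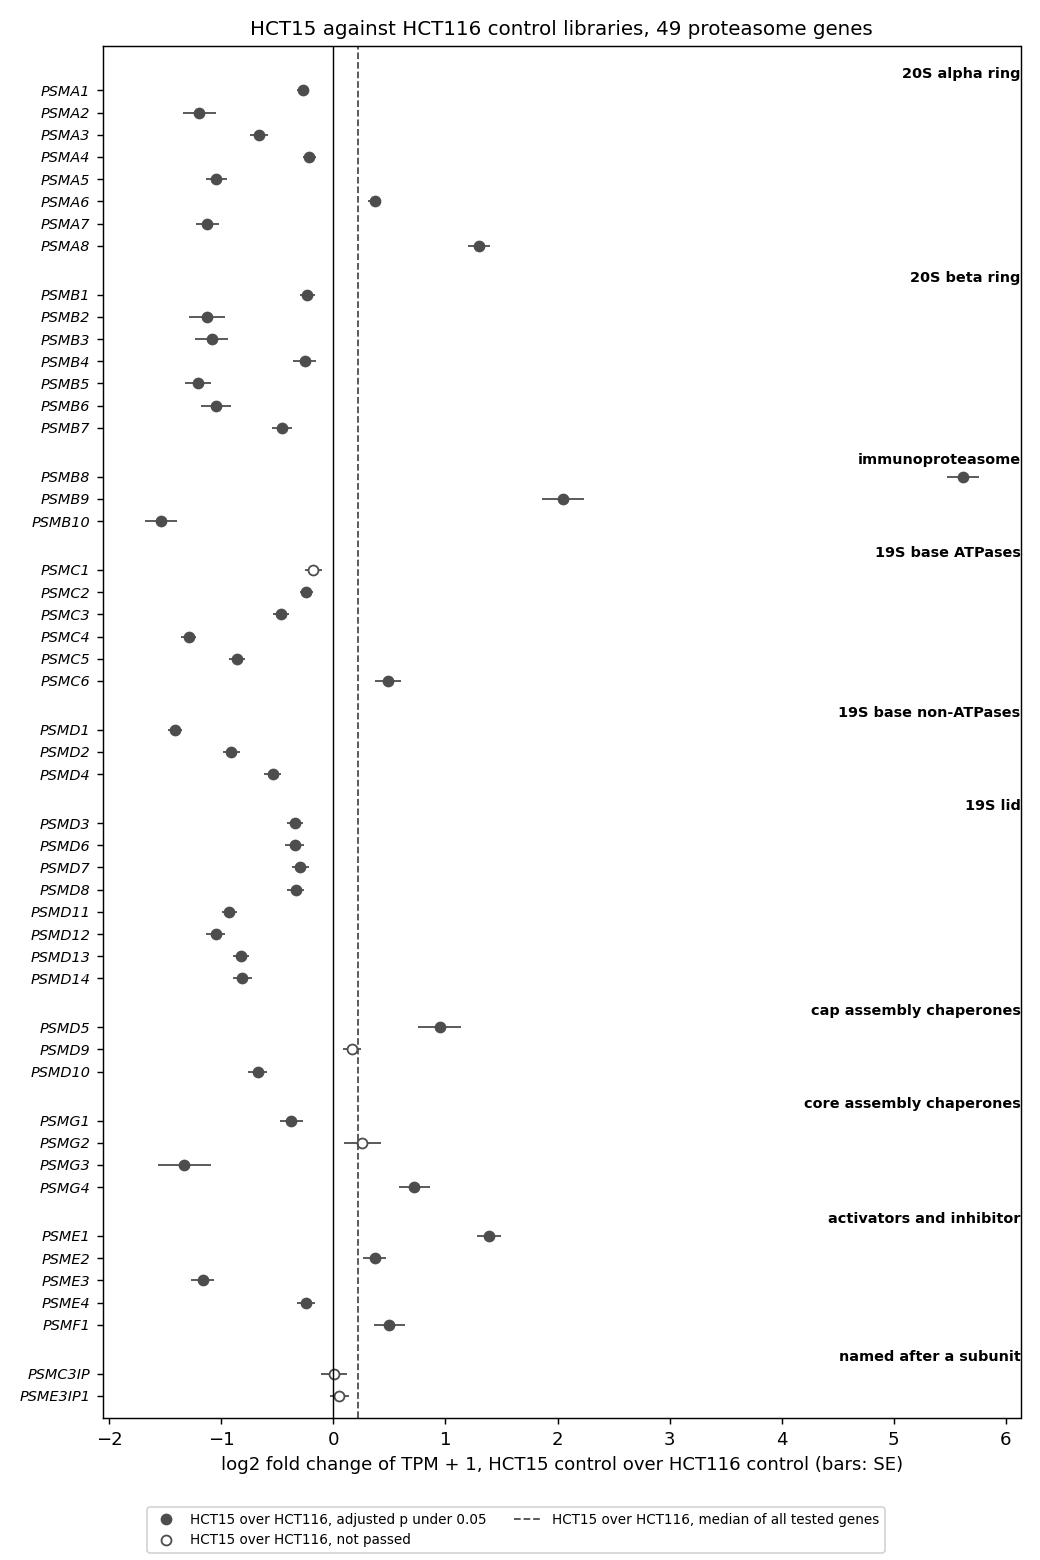
Log2 difference of TPM + 1, HCT15 control over HCT116 control, for each of the 49 tested members by class, with SE bars. Filled points passed an adjusted p of 0.05 and the dashed line is the median of all tested genes. Beta ring, lid and base non-ATPase genes all lie left of 0, PSMB8 and PSMB9 lie farthest right, at 5.62 and 2.05, and PSMB10 farthest left, at -1.54.

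Genes that work with the proteasome under other symbols were read from the same fit, in which 5.39% of all genes rose and 31.2% fell in HCT15. Of 12 partners and assembly factors, 0 rose and 6 fell in HCT15 with RNF26, and their median was 0.035 relative to all genes. AKIRIN2, which brings proteasomes into the nucleus, and ADRM1, the ubiquitin receptor on PSMD1, had log2 fold changes of -0.87 and -0.58. FBXO7, a partner of PSMF1, and UBE3C, a ligase on the cap, had -0.35 and -0.36. Of 7 shuttle factors, which carry ubiquitinated proteins to the cap, 0 rose and 4 fell, with a median of -0.065 relative to all genes. Among them RAD23B, UBQLN2 and UBQLN1 had log2 fold changes of -0.38, -0.39 and -0.22. Of 6 genes of ubiquitin and its activation, 2 rose and 2 fell, with a relative median of -0.082. UBA1, the main activating enzyme, fell by 0.96 on the log2 scale (limma with Benjamini-Hochberg adjusted p = 3.83e-05), as did the polyubiquitin gene UBB (-0.29). RPS27A, which encodes ubiquitin fused to a ribosomal protein, rose (0.82), beside the larger share of ribosomal protein mRNA in these libraries. Under median-ratio scaling the calls of UBE3C, RAD23B, UBQLN1 and UBB ended.

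Of 8 genes on the route that activates NFE2L1, 0 rose and 4 fell in HCT15, against 5.39% and 31.2% of all genes, with a median of -0.14 relative to all genes. SYVN1, a ligase of the endoplasmic reticulum, and UFD1, NPLOC4 and VCP, which extract proteins from its membrane, had -0.74, -0.42, -0.37 and -0.31. NFE2L1 itself averaged 74.5 TPM in HCT15 RNF26 and 91.7 TPM in control libraries and did not pass (limma with Benjamini-Hochberg adjusted p = 0.0522). Of 11 antigen processing genes that interferon induces, 1 rose and 3 fell in HCT15, with a relative median of 0.027. TAPBP, which loads peptides on HLA class I, fell by 0.79 on the log2 scale, B2M, the light chain of class I, rose by 0.37, and HLA-C had -0.43. Under median-ratio scaling the calls of UFD1, NPLOC4, VCP and HLA-C ended. SEL1L, of the NFE2L1 list, and HLA-B then passed as rises, at 0.31 and 0.20 (limma with Benjamini-Hochberg adjusted p = 0.020 and 0.0475). In HCT116 with RNF26, limma called 0 genes of these 5 lists, and 1 gene, among the partners, had an unadjusted p under 0.05. Between the control lines 9 of 11 antigen processing genes were higher in HCT15 and 0 lower, against 43.6% and 26.0% of all genes, among them TAPBP (2.17), TAP1 (0.68) and HLA-B (0.56). NFE2L1 was higher in HCT15 by 1.04. HLA values are uncertain where near-identical copies share reads.

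Across promoter windows of the same length, 44 members had a RefSeq entry and were compared with 27305 promoters. The antioxidant response element was found in 13 members, 29.5%, against 13.6% of all promoters, and the 13 included PSMD1, PSMD3, PSMD12, PSMB3 and PSMB9. The interferon element was found in 6 members, 13.6%, against 3.65%, namely PSMA4, PSMB4, PSMB10, PSME1, PSME2 and PSMG4. The gamma-activated site was found in 5 members, 11.4%, against 7.88%, and CCAAT in 21, 47.7%, against 35.7%. A match is a description of the letters and not a site of binding. By position, members lay on 17 chromosomes, with 8 on chromosome 14 and 8 on chromosome 17. Members' GC content was near that of all genes, with medians of 48.3% and 49.9%, and was lowest in the alpha ring, at 41.8%. Across the 49 members the HCT15 log2 fold change had a Pearson correlation of -0.12 with GC content, and across 14849 tested genes -0.37, where all points share the same libraries.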

How the data were processed

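Poly(A) RNA of 12 libraries was sequenced, and the authors deposited their values as TPM in a table with a column per library. The tools RSEM, StringTie, HISAT2 and fastp and the build GRCh38 are named per the submitters' processing notes; the sources used here do not give versions, roles, annotation or strand setting. TPM keeps no depth, so counting intervals and count models were not applied. Groups came from sample titles.

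Symbols of 62625 identifiers, gene types and positions came from gene tables and GENCODE v29. Genes had to reach 1 TPM in at least 3 libraries, which 15584 genes and 49 of 50 members did, and were tested on log2(TPM + 1), a scale that understates changes of low genes, with limma 3.58.1 in R 4.3.3 (1 mean per group, eBayes with trend, 8 residual and 3.09 prior degrees of freedom, two-sided, Benjamini-Hochberg over all tested genes). The code was tested on simulated data. The fit shares 1 spread per gene over groups, and HCT15 controls varied most (correlations within that group 0.969 to 0.979, in other groups 0.981 to 0.988). Ratios were tested with exact permutation tests (scipy 1.17.1). Promoters came from RefSeq (GRCh38.p14).

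Members, gene lists, tests and alternatives were chosen with earlier results of these data known. Values in every library are given for the 2 members of each class with the smallest p in HCT15, all immunoproteasome, activator and assembly members, up to 6 members called in HCT116 or in the difference of effects, and the 2 largest changes each way between control lines; of other lists up to 4 genes with the smallest p are named. Some of these genes are not reported here. Alternatives were pseudocounts of 0.1 and 5, no filter or 5 TPM, median-ratio scaling, quantile normalization, removal of mitochondrial and ribosomal protein genes, correction for GC content and length, separate fits, eBayes without trend or robust, a replicate block, and each library left out. A GC and length correction with equal library means, and median-ratio scaling of the summed cap and core levels, were added after seeing the data.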

Additional observations from a re-analysis of the deposited data

Results flagged for a closer look

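The RNF26 effect differed between the lines for 9 proteasome genes in limma's interaction test (Benjamini-Hochberg adjusted p under 0.05), each given as the log2 difference of effects, HCT15 minus HCT116. Among cap subunits the difference was -0.85 for PSMD2, -0.65 for PSMD3, -0.58 for PSMD8, -0.49 for PSMD1 and -0.37 for PSMD12. The cap chaperone PSMD5 gave -0.85 and the inhibitor PSMF1 gave -0.77. In the alpha ring PSMA8 gave -0.46 and PSMA5 gave 0.49. The lower calls are 16.3% of the members, against 18.7% of all genes tested.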

How the results depend on the processing

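Of the proteasome genes in HCT15, rises and falls numbered 4 and 19. They numbered 1 and 12 with no filter on low values, 18 and 5 with median-ratio scaling, 12 and 6 with quantile normalization, 9 and 8 without mitochondrial and ribosomal protein genes, 2 and 20 with GC and length correction, 9 and 11 with that correction and equal library means, and 0 and 7 in a separate fit. For the difference of effects the counts of 1 higher and 8 lower became 0 and 4, 8 and 2, 4 and 3, 3 and 5, 0 and 14, and 3 and 4 under the first 6 of these settings. Leaving out each library gave 1 to 7 rises and 10 to 19 falls in HCT15, 0 to 5 higher and 5 to 12 lower for the difference, 10 to 12 higher and 33 to 34 lower between control lines, and 0 in HCT116. The log2 change of RNF26 stayed at 3.96 to 4.15 in HCT116 and 0.96 to 1.002 in HCT15. Signs turned in HCT15 for PSMC5 (0.011 with median-ratio scaling, 0.00018 with GC and length correction and equal means), PSMD11 (0.028 with median-ratio scaling, 0.040 with quantile normalization), PSMC4 (0.042 with GC and length correction and equal means) and PSME4 (0.0062 with quantile normalization), and the cause was not tested. The log2 ratio of PSMB9 to PSMB6 in HCT116 was -0.047 and lay between -0.091 and 0.025 with a library left out. Other leave-out ranges were 1.005 to 1.149 for that ratio in HCT15, 0.12 to 0.19 for PSMB8 to PSMB5, 0.058 to 0.32 for PSMB10 to PSMB7 in HCT15, and 0.063 to 0.22 for PSMB10 to PSMB7 in HCT116.

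With the replicate number as a block, rises and falls were 4 and 18 in HCT15, 10 and 34 between lines, 0 in HCT116, and 1 and 5 for the difference. The numbers are not known to pair the samples: deviations of same-numbered libraries correlated at -0.042 to 0.146. TPM keeps no depth, so how far depth limits low genes such as PSMA8 or PSMB8 in HCT116 is unknown.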
